A study of Homo sapiens with 6 samples.

Results

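Ubiquitin is joined to a protein in 3 enzymatic steps, and the genes of those steps are described here in HL60 cells edited in akirin2. The members are the rows of the deposited gene table whose name is UBA1 to UBA7, begins with UBE2 and a letter, or is RNF followed by a number and at most an A or B, without pseudogenes and names with a hyphen. The rule found 103 of the 17499 genes in the table: 6 E1 genes, 32 E2 genes and 65 RNF genes, and all 103 passed the minimum mean of 10 normalized counts, so that none is missing from the tests. The class of RNF genes is defined by name alone and holds RING finger proteins of many functions, not all ubiquitin ligases of the cell.

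An E1 enzyme activates ubiquitin, or a ubiquitin-like protein such as SUMO, NEDD8, ISG15 or UFM1, with ATP and passes it to the active cysteine of an E2 conjugating enzyme. An E3 ligase then binds the E2 and the substrate. RING ligases let the E2 transfer ubiquitin directly, whereas RING-between-RING ligases, like HECT ligases, first take it on a cysteine of their own. The pair of E2 and E3 decides much of the chain type, and the chain decides whether the protein goes to the proteasome, to a signalling complex or to DNA repair.

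The promyelocytic leukemia line HL60 is an established human cell line and serves as a neutrophil-like model, and Akirin2 is a nuclear cofactor without DNA-binding or catalytic activity of its own. KO cells received a guide RNA against akirin2 in a complex with Cas9, and WT cells received SpCas9 nuclease alone; both were kept in serum-containing medium with no further treatment. The edited cells are a pool that was not cloned, so that KO libraries also hold RNA of cells in which the gene was not disrupted, and the labels give the genotype of KO as a knock down of AKR2. Polyadenylated RNA was sequenced in 3 libraries of each group, KO1 to KO3 and WT1 to WT3, at 36096459 to 52244122 reads per library assigned to genes. The study calls the 3 replicates of a group biological, but does not say whether they were separate cultures, so each p-value rests on the spread among these 6 libraries, which may be technical.

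Normalized read counts, in which the size factor of a library divides its reads, were compared as log2(count + 1) with limma. The log2 KO/WT ratio is the difference of the group means on that scale, SE its standard error, and a gene was called at an adjusted p under 0.05 over all 17425 genes tested. AKIRIN2 itself had 1613, 1731 and 1651 normalized counts in KO and 2378, 2450 and 2420 in WT, a log2 KO/WT ratio of −0.54 (SE 0.049, limma adjusted p = 1.3e-08). Values given below after higher or lower are log2 KO/WT ratios. For AKIRIN2 the groups did not overlap, and the exact two-sided permutation test over the 6 libraries gave p = 0.1, the smallest that 3 libraries against 3 allow. The change was broad over the whole table: 10552 genes (60.6%) were called, 5277 higher (30.3%) and 5275 lower (30.3%) in KO. The defining promyelocyte genes MPO, ELANE, PRTN3, AZU1, CTSG, MYB and CD33 were all measured, and 6 of these 7 were higher in KO, with a sum of 1.02e+06 to 1.06e+06 normalized counts in KO and 3.51e+05 to 3.71e+05 in WT. Monocyte markers summed to 19179 to 19561 in KO and 6907 to 7277 in WT, mostly LYZ, while CD14 was lower in KO. The T and NK markers, of which CD2 and CD3D are not in the table, summed to 1307 to 1398 in KO and 3074 to 3659 in WT, mostly NKG7. B cell markers summed to 238 to 253 in KO and 157 to 177 in WT, and no erythroid marker is in the table. Epithelial and fibroblast markers summed to 388 to 901 in KO and 349 to 5594 in WT, the highest being WT1 with 4609 counts of FN1, and the part of all these differences in the results below was not tested. In bulk RNA, fewer cells of a type and less RNA per cell cannot be told apart.

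Of the 103 members, 27 were called higher and 46 lower in KO, together 70.9%, beside 60.6% of all genes and 68.0% of the protein-coding genes. Of genes averaging 100 or more normalized counts, 73.0% were called, more than of the members. Libraries of KO and WT did not overlap in 72 members (69.9%), beside 65.2% of all genes and 75.9% of those averaging 100 or more. The changes were small: only 3 members, RNF157, RNF19B and RNF122, were called with a change of more than 1 on the log2 scale, beside 14.8% of all genes, and 20 (19.4%) passed 0.5, beside 33.9%. The median absolute log2 KO/WT ratio was 0.29 over the members, 0.39 over all genes tested and 0.32 over those averaging 100 or more. Of the 11301 genes averaging 100 or more, 1133 were called with a change of more than 1, and 32.3% passed 0.5.

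The 3 classes differed in the direction of their calls. E1 genes had 3 higher and 1 lower of 6, with a median log2 KO/WT ratio of 0.23. E2 genes had 12 higher and 13 lower of 32, with a median of −0.028, and the median of all genes was −0.0066. Removal of a trend on transcript length changed the E2 split to 14 higher and 9 lower. RNF genes had 12 higher and 32 lower of 65, or 18.5% and 49.2%, with a median of −0.16. Of the genes averaging 100 or more normalized counts, 37.1% were called higher and 35.9% lower, and of the 58 RNF genes at this level 11 were higher and 29 lower. In all 18 other settings tried, RNF genes were called lower more often than higher, with 24 to 32 lower and 9 to 13 higher.

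Summed over a class, the share of counts was higher in KO for the E1 and E2 genes and lower for the RNF genes. The E1 genes took 0.0677% ± 0.00064 (SD, n = 3) of all normalized counts in the KO libraries, and in WT libraries 0.0582% ± 0.00089 (SD, n = 3). The RNF genes took 0.230% ± 0.00084 (SD, n = 3) in the KO libraries, and in WT libraries 0.260% ± 0.0017 (SD, n = 3). For the E2 genes the shares were 0.254% ± 0.0022 (SD, n = 3) and 0.247% ± 0.003 (SD, n = 3). In each of the classes the shares of the 3 KO libraries lay outside the range of the 3 WT libraries. A share divides by the normalized total, which was 4.33e+07 to 4.38e+07 in KO libraries and 4.37e+07 to 4.66e+07 in WT libraries. A higher share is therefore not by itself a higher sum of counts. For the E2 genes the median log2 KO/WT ratio, which does not use this divisor, was −0.028.

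**Figure D1:**
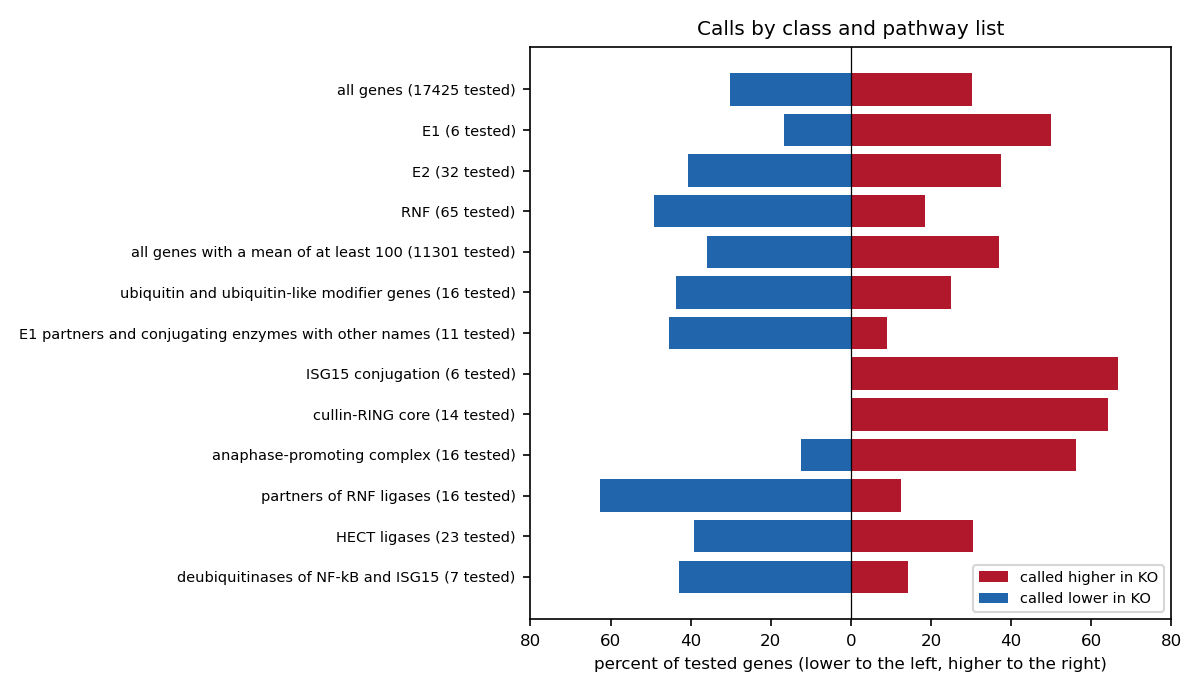
Percent of tested genes called higher (right, red) or lower (left, blue) in KO, for all genes, those averaging 100 or more counts, the 3 classes and 8 lists of related genes, with the number tested beside each name. Over all genes the bars are equal, at 30.3% each, while 49.2% of the RNF genes lie on the lower side and 9 of 14 genes of the cullin-RING core lie on the higher side with none lower.

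Both E1 enzymes of ubiquitin rose in KO. UBA1, which charges most of the ubiquitin of the cell, is on the X chromosome (GRCh38, chrX:47190861-47215128, plus strand). It had 14989, 15024 and 15064 normalized counts in KO and 10361, 11271 and 10285 in WT, a log2 KO/WT ratio of 0.50 (SE 0.044, limma adjusted p = 9.0e-09). The KO libraries had a coefficient of variation of 0.25%, and all were above the highest WT library. UBA6, which activates ubiquitin and the ubiquitin-like protein FAT10, had 2286, 2449 and 2291 in KO and 1792, 1836 and 1738 in WT, also without overlap, a log2 KO/WT ratio of 0.39 (SE 0.050, limma adjusted p = 1.4e-06).

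RefSeq gives UBA1 a pair of start sites, and the 250 bases before each (GRCh38.p14, plus strand) are shown because UBA1 had the largest rise of the E1 genes. Capitals mark motifs a search found on either strand, each position being that of the motif's first base relative to the start. In the window before the upstream start, chrX:47190597-47190846, these are the E-box CACGTG at −204 and the NF-kB consensus at −37. In the window before the downstream start, chrX:47193579-47193828, the pattern TGANTCA matched at −89, where it reads TGATTCA.
UBA1 upstream start: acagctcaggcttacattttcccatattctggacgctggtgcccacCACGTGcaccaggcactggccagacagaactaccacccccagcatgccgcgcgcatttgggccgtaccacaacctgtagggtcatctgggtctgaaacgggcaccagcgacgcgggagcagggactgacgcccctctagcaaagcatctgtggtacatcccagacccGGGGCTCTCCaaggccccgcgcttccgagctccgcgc
UBA1 downstream start: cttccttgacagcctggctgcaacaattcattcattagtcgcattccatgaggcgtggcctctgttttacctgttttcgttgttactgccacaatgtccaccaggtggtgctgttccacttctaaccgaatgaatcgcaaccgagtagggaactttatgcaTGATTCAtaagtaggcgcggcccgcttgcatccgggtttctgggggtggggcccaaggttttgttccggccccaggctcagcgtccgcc
The study describes Akirin2 as connecting NF-kB with chromatin remodelers. Whether it acts on UBA1 through any of these motifs was not tested. Windows of this length were in the RefSeq table for 83 of the 103 members, 122 windows in all. The NF-kB consensus was in 12.3% of these 122 windows, beside 5.21% of all 35116 windows and 5.96% of the windows of other tested protein-coding genes, a difference that was not tested. The 13 members with it were 2 called higher (UBA1 and RNF6), 7 called lower and others that were not called. Of all 103 members, 26.2% were called higher and 44.7% lower. TGANTCA was in 3.28% of the member windows, 6.57% of all windows and 4.42% of those of other tested protein-coding genes. For CACGTG the shares were 5.74%, 6.34% and 8.29%. Such a match describes the letters of the window and not binding.

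The E1 enzymes of ubiquitin-like proteins did not move together. UBA2, the catalytic subunit of the SUMO E1, fell from 10082, 9496 and 9674 normalized counts in WT to 7337, 7581 and 7450 in KO, a log2 KO/WT ratio of −0.39 (SE 0.042, limma adjusted p = 1.5e-07). UBA7, the E1 of ISG15, rose, with 1020, 978 and 1072 in KO and 759, 835 and 775 in WT and a log2 KO/WT ratio of 0.37. For UBA2 and UBA7 the groups did not overlap. UBA3, the catalytic subunit of the NEDD8 E1, had 1638, 1693 and 1789 in KO and 1703, 1530 and 1605 in WT (log2 KO/WT ratio 0.083, limma adjusted p = 0.21). Its groups overlapped, and it was called higher when libraries were scaled to equal totals or a trend on transcript length was removed. Per kilobase of joined exons, UBA2 had the highest level of the E1 genes in WT, 2025 normalized counts per kilobase against 1653 for UBA1. In KO this order was exchanged, with 2334 for UBA1 and 1549 for UBA2, and the order of UBA3, UBA7 and UBA6, which followed, was the same in both groups.

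**Figure D2:**
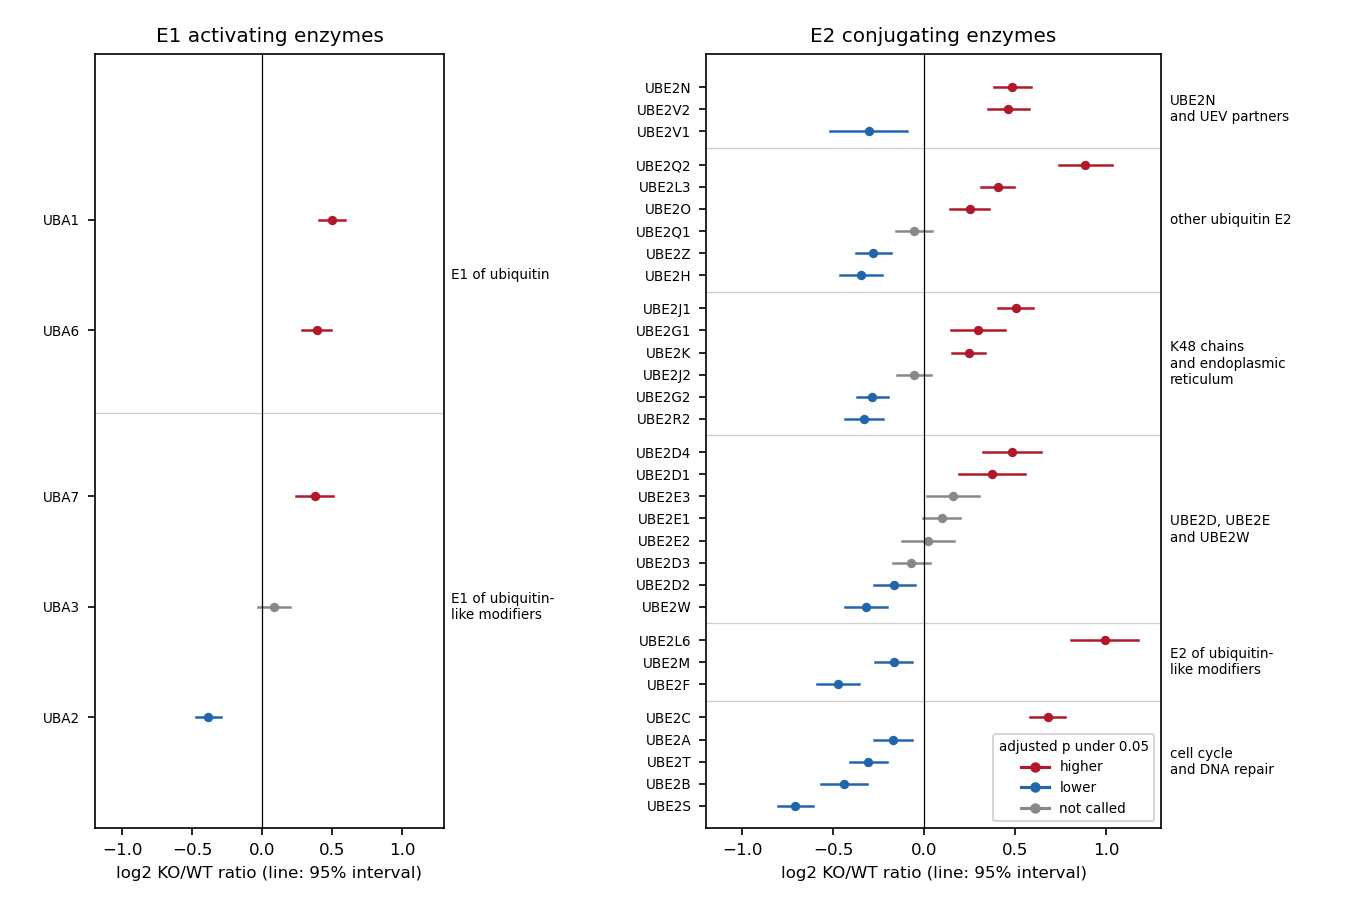
Log2 KO/WT ratio of the E1 genes (left panel) and the E2 genes (right panel) that are reported by name, grouped by role; points are limma estimates, lines their 95% intervals, and colours show the call at an adjusted p under 0.05. UBA1 and UBA6 lie to the right of 0, and the E2 genes run from −0.71 for UBE2S to 0.99 for UBE2L6.

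Among the E2 genes, the pair that serves the anaphase-promoting complex moved in opposite directions. UBE2C starts chains on mitotic substrates of this complex and UBE2S extends them. UBE2C had 4424, 4591 and 4301 normalized counts in KO and 2741, 2845 and 2741 in WT, a log2 KO/WT ratio of 0.68 (SE 0.045, limma adjusted p = 1.4e-10). UBE2S had 5301, 5008 and 5484 in KO and 8263, 8606 and 8950 in WT, a log2 KO/WT ratio of −0.71 (SE 0.046, limma adjusted p = 1.1e-10), the largest fall of an E2 gene. Neither pair of groups overlapped. Per kilobase, UBE2S was above UBE2C in WT (3087 and 2159) and below it in KO (1888 and 3452). UBE2S shares 15.5% of its 31-base words with the pseudogene UBE2SP1, between which reads could be split, and UBE2SP1 was also lower, at −0.63 on the log2 scale.

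Since UBE2S had the largest fall of the class, the 250 bases before its RefSeq start (GRCh38.p14, chr19:55407789-55408038, minus strand, written in the direction of the gene) are shown. Capitals mark the CRE motif TGACGTCA at −88 and, at −191, CCAAT, which reads ATTGG on this strand.
UBE2S: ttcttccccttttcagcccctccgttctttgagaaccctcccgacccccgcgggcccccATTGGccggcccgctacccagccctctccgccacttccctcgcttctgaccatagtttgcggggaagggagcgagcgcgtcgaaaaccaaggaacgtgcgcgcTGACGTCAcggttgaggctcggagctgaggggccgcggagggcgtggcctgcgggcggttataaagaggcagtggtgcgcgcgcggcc
TGACGTCA was in 1.64% of the 122 member windows, 1.65% of all windows and 2.4% of those of other tested protein-coding genes.

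The other 3 members of the cell cycle and DNA repair group fell. UBE2A and UBE2B are the near-identical human forms of yeast Rad6, which mark histone H2B and the replication clamp. UBE2B had 1110, 1141 and 1099 normalized counts in KO and 1657, 1459 and 1440 in WT, a log2 KO/WT ratio of −0.44. UBE2A had 2664, 2733 and 2639 in KO and 3136, 3097 and 2823 in WT, a log2 KO/WT ratio of −0.17, and its call was lost in 3 settings, among them that without WT1 and KO3. UBE2T, the E2 of the Fanconi anemia pathway, had 1838, 1821 and 1859 in KO and 2374, 2255 and 2204 in WT, a log2 KO/WT ratio of −0.31. In none of the 3 did the groups overlap.

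Of the E2 enzymes of ubiquitin-like proteins, UBE2L6 had the largest rise of all E2 genes. UBE2L6, the E2 of ISG15, had 568, 515 and 554 normalized counts in KO and 297, 282 and 246 in WT, a log2 KO/WT ratio of 0.99 (SE 0.088, limma adjusted p = 1.1e-08). Both NEDD8 E2 genes fell. UBE2F, which modifies CUL5, had 995, 974 and 1034 in KO and 1420, 1404 and 1344 in WT, a log2 KO/WT ratio of −0.47. It shares 13.7% of its 31-base words with the read-through gene UBE2F-SCLY. UBE2M, which modifies the other cullins, had 6434, 6441 and 6791 in KO and 7165, 7985 and 7004 in WT, a log2 KO/WT ratio of −0.17, and its call was lost without a variance trend and with the length trend removed.

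UBE2N, which builds the K63-linked chains of signalling and DNA damage together with the inactive E2 variants UBE2V1 and UBE2V2, rose with one of these partners. UBE2N had 4945, 5182 and 5026 normalized counts in KO and 3721, 3768 and 3361 in WT, a log2 KO/WT ratio of 0.48 (SE 0.049, limma adjusted p = 6.0e-08). UBE2V2 had 3758, 4070 and 3860 in KO and 3036, 2834 and 2627 in WT, a log2 KO/WT ratio of 0.46. UBE2V1 was lower, with 327, 295 and 400 in KO and 401, 415 and 441 in WT, the highest KO library lying just under the lowest WT library. Its call was lost without KO2 and in 3 other settings, and it shares 39.8% of its 31-base words with TMEM189-UBE2V1, so that its count is uncertain. Of the exons of UBE2N, 39.5% lie under exons of NUDT4 on the other strand, and whether counting used the strand is not given in the sources used here.

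Group members that work at the endoplasmic reticulum or build K48-linked chains, the usual mark for the proteasome, were 3 higher, 2 lower and 1 not called. Of all 32 E2 genes, 12 were higher and 13 lower. UBE2J1, anchored in the membrane of the endoplasmic reticulum, had 6771, 7021 and 6557 normalized counts in KO and 4877, 4967 and 4534 in WT, a log2 KO/WT ratio of 0.50 (SE 0.046, limma adjusted p = 1.7e-08). UBE2G2, which works with ligases of the same membrane, had 13966, 14056 and 14318 in KO and 17259, 17184 and 17180 in WT, a log2 KO/WT ratio of −0.29. UBE2R2, an E2 of cullin ligases, had 4180, 4423 and 4145 in KO and 5589, 5518 and 4949 in WT, a log2 KO/WT ratio of −0.33. The groups did not overlap in these 3 genes. UBE2K and UBE2G1 were higher by 0.24 and 0.29, and UBE2J2 had a log2 KO/WT ratio of −0.056 (limma adjusted p = 0.29).

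The UBE2D enzymes, near-identical proteins that serve a wide range of RING ligases, split by paralog. UBE2D1 had 433, 417 and 375 normalized counts in KO and 327, 308 and 310 in WT, a log2 KO/WT ratio of 0.37. UBE2D4 had 593, 600 and 563 in KO and 449, 419 and 392 in WT, a log2 KO/WT ratio of 0.48. UBE2D2 had 1582, 1595 and 1589 in KO and 1872, 1822 and 1662 in WT, a log2 KO/WT ratio of −0.17 whose call was lost without WT1 and in 4 other settings. The most abundant per kilobase, UBE2D3, had 7000, 7472 and 7237 in KO and 8166, 7428 and 7245 in WT, with overlap and a log2 KO/WT ratio of −0.072 (limma adjusted p = 0.21). Per kilobase UBE2D3 had 756 normalized counts in WT, UBE2D2 502, UBE2D1 90.3 and UBE2D4 89.1, so that the rises were in the paralogs with the lower levels. UBE2W, which places ubiquitin on protein N termini, was lower, at −0.32, and UBE2E1, UBE2E2 and UBE2E3 were not called, with log2 KO/WT ratios of 0.096, 0.020 and 0.16. UBE2E3 was called higher in 7 other settings and UBE2E1 in 5.

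Of the remaining E2 genes, UBE2Q2 showed the largest rise, with 817, 917 and 925 normalized counts in KO and 467, 483 and 488 in WT, a log2 KO/WT ratio of 0.88 (SE 0.069, limma adjusted p = 1.7e-09). UBE2L3, the E2 that works with HECT and RING-between-RING ligases, had 7028, 7375 and 7024 in KO and 5502, 5537 and 5181 in WT, a log2 KO/WT ratio of 0.40. UBE2H had 965, 1025 and 1017 in KO and 1305, 1287 and 1236 in WT, a log2 KO/WT ratio of −0.35. All 3 genes had groups that did not overlap. UBE2O was higher by 0.25, UBE2Z, the E2 that works with UBA6, was lower, at −0.28, and UBE2Q1 was not called, with −0.059.

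**Figure D3:**
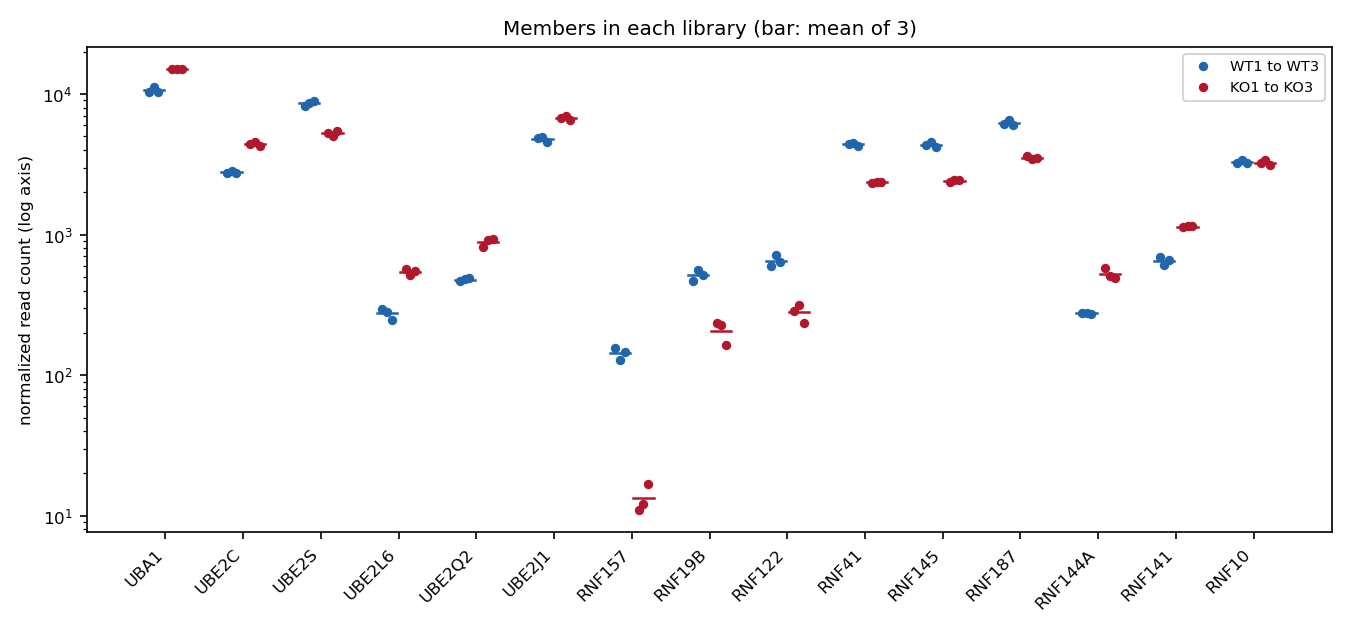
Normalized read counts of 15 members in each library on a log axis, WT in blue and KO in red, with a bar at the mean of 3 libraries; libraries of a group are in the order 1 to 3. KO and WT points are apart in all members shown except RNF10, and RNF157 lies between 11.0 and 16.8 in KO and between 129 and 157 in WT.

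RNF157 had by far the largest change of the 103 members. It had 11.0, 12.1 and 16.8 normalized counts in KO and 157, 129 and 146 in WT, a log2 KO/WT ratio of −3.36 (SE 0.23, limma adjusted p = 2.9e-10), so that the KO mean was 0.0921 of the WT mean. RNF157 is a RING ligase best known from neurons of rodents. It lies on chromosome 17, and the 250 bases before its RefSeq start (GRCh38.p14, chr17:76240494-76240743, minus strand, in the direction of the gene) are shown because no other member changed as much.
RNF157: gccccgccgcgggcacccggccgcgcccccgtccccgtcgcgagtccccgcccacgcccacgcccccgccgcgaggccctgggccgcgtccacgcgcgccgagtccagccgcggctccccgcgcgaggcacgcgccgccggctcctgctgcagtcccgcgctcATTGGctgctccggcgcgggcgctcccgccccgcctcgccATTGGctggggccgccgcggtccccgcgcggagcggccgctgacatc
Capitals mark CCAAT, which reads ATTGG on this strand, at −87 and −47. CCAAT was in 33.6% of the member windows, 32.0% of all windows and 32.9% of those of other tested protein-coding genes. The 37 members with it were 6 called higher, 20 called lower and others not called. Beside these, 26.2% of all members were higher and 44.7% lower. Most of the 37 are RNF genes, a class with 18.5% higher and 49.2% lower.

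Of the RNF role groups, that of other membrane-anchored ligases was called lower most often. It holds 11 members, of which 8 were called lower and 1 higher, with a median log2 KO/WT ratio of −0.41. Of the whole RNF class 18.5% were called higher and 49.2% lower, and of all genes 30.3% in each direction. Protease-associated and RING-between-RING members are grouped apart below, also where they are anchored in a membrane. Of the RING-between-RING group, 3 were called higher and 2 lower. RNF122 had 287, 317 and 235 normalized counts in KO and 601, 715 and 638 in WT, a log2 KO/WT ratio of −1.22 (SE 0.10, limma adjusted p = 3.5e-09). RNF145, a sterol-responsive ligase of the endoplasmic reticulum that acts on HMG-CoA reductase, had 2355, 2461 and 2455 in KO and 4346, 4537 and 4179 in WT, a log2 KO/WT ratio of −0.84 (SE 0.047, limma adjusted p = 9.2e-12). In both the highest KO library was well under the lowest WT library. RNF145 shares 14.5% of its 31-base words with AC100757.1. RNF26, which holds endosomes near the nucleus from the endoplasmic reticulum, had 1546, 1598 and 1523 in KO and 2365, 2473 and 2663 in WT, a log2 KO/WT ratio of −0.68. RNF24 had 8578, 8675 and 8245 in KO and 11444, 11586 and 11114 in WT, a log2 KO/WT ratio of −0.42. RNF170, a ligase of the IP3 receptor, was the one member of this group called higher. It had 583, 579 and 602 in KO and 507, 475 and 443 in WT, a log2 KO/WT ratio of 0.31. RNF121, RNF185, RNF175 and RNF5 were lower, at −0.41, −0.26, −0.58 and −0.19, and RNF103 and RNF139 were not called, with −0.15 and −0.044.

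Of the 5 members grouped under a protease-associated domain, a membrane span and a RING, 3 (60%) were called lower and none higher. In the RNF class 49.2% were called lower. RNF167, a ligase of endosomes and lysosomes, had 4139, 3893 and 4084 normalized counts in KO and 4925, 5435 and 4706 in WT, a log2 KO/WT ratio of −0.31. RNF13 was lower, at −0.26. RNF149 was lower, at −0.12, a call that was lost in 12 of the 18 other settings. RNF130 was not called, and its KO libraries nevertheless all lay below its WT libraries. RNF43, a brake on Wnt receptors, was near the minimum count and varied most of all members, with 4.57, 2.01 and 20.4 in KO and 5.63, 6.74 and 23.4 in WT. Its coefficient of variation was 111% in KO and 83.5% in WT, and it shares 56.5% of its 31-base words with AC004687.2.

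**Figure D4:**
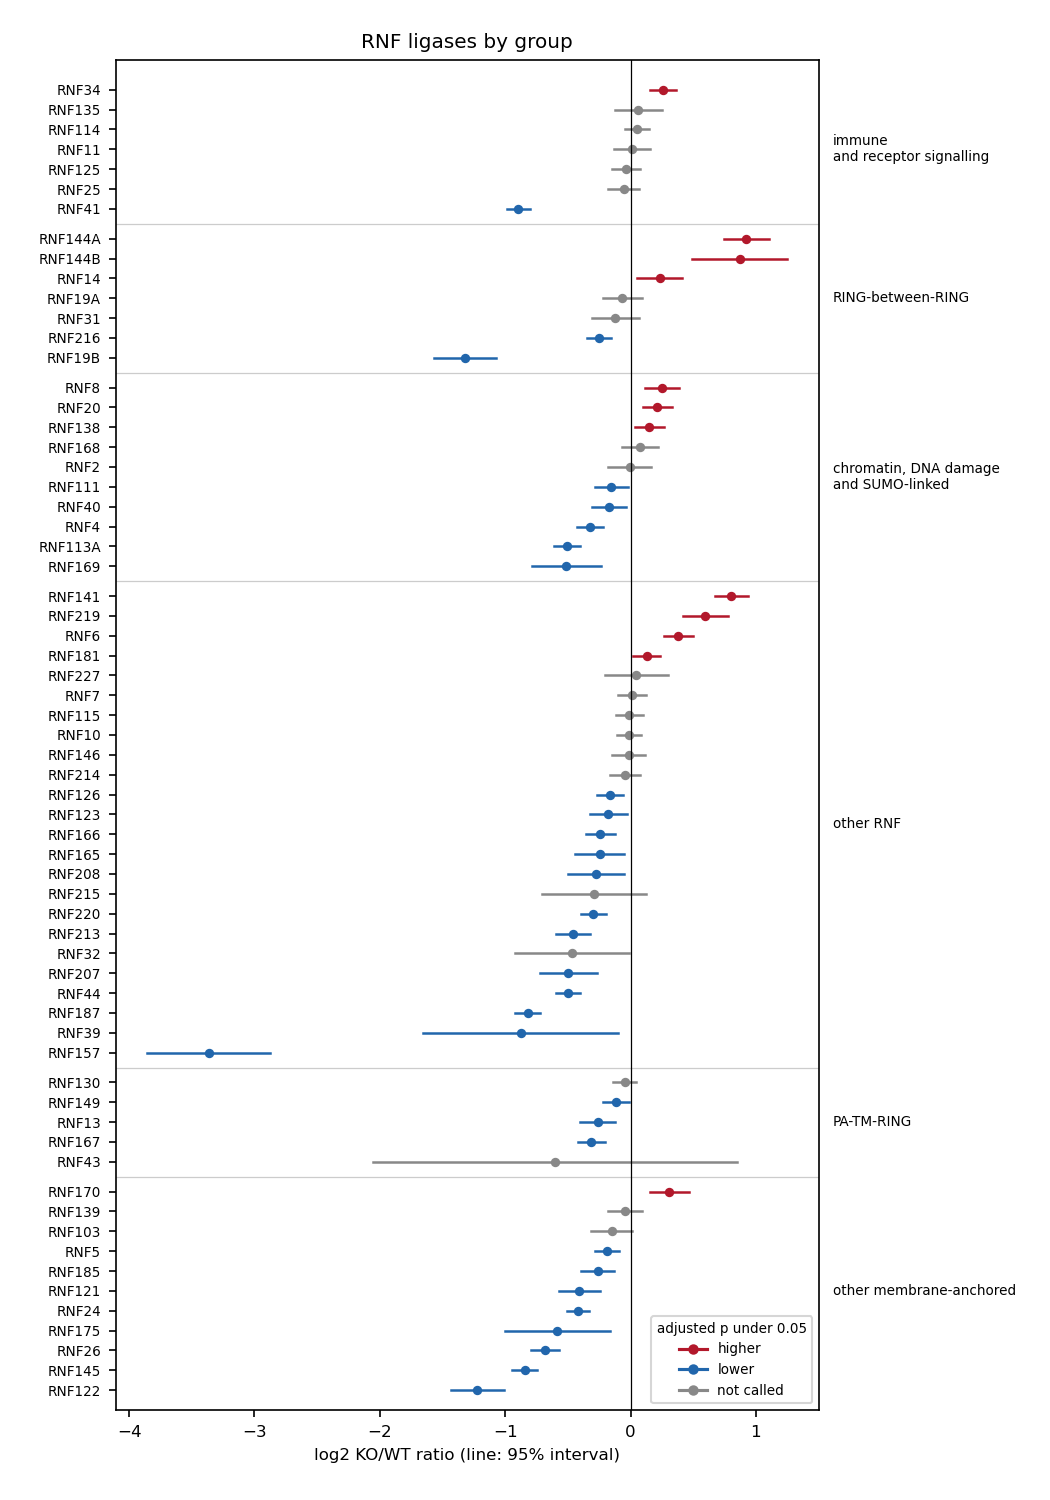
Log2 KO/WT ratio of the RNF genes that are reported by name, by group; points are limma estimates, lines their 95% intervals, and colours show the call at an adjusted p under 0.05. RNF157 stands apart at −3.36. In the group named other membrane-anchored, 8 of the 11 members lie on the lower side as called genes. In immune and receptor signalling, 5 of the 7 members are not called. Of all 65 RNF genes, 32 were called lower and 21 were not called.

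RING-between-RING ligases held both the second largest fall and the largest rises of the RNF class. RNF19B, known from the lytic granules of natural killer cells, had 234, 226 and 163 normalized counts in KO and 468, 564 and 514 in WT, a log2 KO/WT ratio of −1.32 (SE 0.12, limma adjusted p = 1.2e-08). Of the 4 T and NK markers in the table, NKG7 and CD3E were lower in KO, with 1221 to 1324 against 2878 to 3483 and 10.8 to 19.1 against 99.5 to 148 normalized counts, CD247 was higher, with 30.1 to 43.9 against 12.4 to 22.5, and GNLY was not called, with 22.1 to 23.8 against 16.9 to 29.3. All libraries are of the HL60 line, and whether these marker values and the fall of RNF19B are related was not tested. RNF144A, a ligase linked to DNA damage, had 576, 506 and 495 in KO and 276, 278 and 274 in WT, a log2 KO/WT ratio of 0.92 (SE 0.084, limma adjusted p = 1.4e-08). Its paralog RNF144B was at a lower count, 93.2, 96.4 and 87.7 in KO and 44.1, 54.0 and 52.7 in WT, with a log2 KO/WT ratio of 0.87. The groups did not overlap in these genes. RNF14 was higher by 0.23, a call lost without KO1, without KO2, without WT3 or without a variance trend, and RNF216 was lower, at −0.25. RNF19A was not called, with −0.066. RNF31, the catalytic subunit of the complex that builds linear ubiquitin chains, had 767, 577 and 755 in KO and 716, 787 and 763 in WT, with overlap (log2 KO/WT ratio −0.12, limma adjusted p = 0.25). It shares 31.7% of its 31-base words with AL136295.5.

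Of the 7 RNF members with roles in immune and receptor signalling, only RNF41 and RNF34 were called (28.6%, beside 67.7% of the RNF class). RNF41, which marks the receptor ERBB3 and signalling adaptors, had 2323, 2375 and 2359 normalized counts in KO and 4423, 4467 and 4243 in WT, a log2 KO/WT ratio of −0.90 (SE 0.044, limma adjusted p = 1.9e-12). RNF34, an inhibitor of death receptor signalling, had 1952, 1941 and 2045 in KO and 1695, 1659 and 1609 in WT, a log2 KO/WT ratio of 0.26. RNF125 and RNF135, which act on the RNA sensor RIG-I, had log2 KO/WT ratios of −0.034 and 0.061, and RNF114, RNF11 and RNF25 had 0.049, 0.0092 and −0.053. None of these 5 passed the test in these libraries.

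Members that act on chromatin and DNA damage were 3 higher, 5 lower (50%, beside 49.2% of the RNF class) and 2 not called. RNF20 and RNF40 form the ligase of histone H2B. RNF20 had 1822, 1935 and 1730 normalized counts in KO and 1630, 1589 and 1507 in WT, a log2 KO/WT ratio of 0.21. RNF40 had 1454, 1295 and 1281 in KO and 1396, 1648 and 1504 in WT, with overlap, and its call, at −0.17, was lost in 7 settings, among them those without KO2, KO3 or WT2. Of its exons, 47.2% lie under exons of CCDC189 on the other strand. RNF8, which starts the ubiquitin signal at double-strand breaks, was higher by 0.25, with 977, 889 and 985 in KO and 835, 801 and 760 in WT. RNF168, which extends that signal, had a log2 KO/WT ratio of 0.076 (limma adjusted p = 0.34). RNF169, which reads the mark of RNF168, had 226, 160 and 154 in KO and 239, 254 and 266 in WT, a log2 KO/WT ratio of −0.51. RNF4, a ligase that recognises SUMO chains, was lower, at −0.32, and RNF113A, a spliceosome protein, at −0.51. On the other strand, exons of XRRA1 cover 27.9% of the RNF169 exons and exons of NDUFA1 cover 25.2% of those of RNF113A. RNF138 was higher, at 0.15, and RNF111 lower, at −0.16, with calls lost in 3 and in 11 settings. RNF2, the catalytic subunit of polycomb complex 1, had 395, 456 and 460 in KO and 416, 459 and 441 in WT, a log2 KO/WT ratio of −0.0075 with a 95% interval of −0.18 to 0.17.

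The 25 remaining RNF genes were 4 higher, 13 lower (52%, beside 49.2% of the RNF class) and 8 not called. After RNF157 the largest fall in this group among well-expressed genes was that of RNF187, a coactivator of the AP-1 protein JUN, with 3610, 3448 and 3505 normalized counts in KO and 6088, 6589 and 6004 in WT and a log2 KO/WT ratio of −0.82 (SE 0.046, limma adjusted p = 1.2e-11). RNF44 had 6635, 6483 and 6450 in KO and 9361, 9588 and 8734 in WT, a log2 KO/WT ratio of −0.50. RNF220 had 4949, 4872 and 5020 in KO and 6153, 6410 and 5689 in WT, a log2 KO/WT ratio of −0.30. All of these had groups that did not overlap. RNF213, a very large ligase with an ATPase core, was lower, at −0.46. RNF207 and RNF166 were lower, at −0.50 and −0.24, and RNF165, RNF208 and RNF39, at −0.25, −0.27 and −0.88, had calls that were lost in 7 or more settings. RNF126, a ligase of protein quality control, was lower, at −0.16, a call lost without KO2 and in 3 other settings.

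Rises were fewer in this group. RNF141 had 1126, 1147 and 1144 normalized counts in KO and 694, 606 and 658 in WT, a log2 KO/WT ratio of 0.80 (SE 0.064, limma adjusted p = 1.8e-09). RNF219, a ligase of the replication origin complex, had 516, 485 and 520 in KO and 373, 326 and 310 in WT, a log2 KO/WT ratio of 0.60. Of its exons, 41% lie under exons of RNF219-AS1 on the other strand, a gene that was not called. RNF6 had 1668, 1835 and 1657 in KO and 1359, 1287 and 1309 in WT, a log2 KO/WT ratio of 0.38. In these 3 genes every KO library was above every WT library. RNF181 was higher by 0.13, a call lost in 5 settings. The 8 members of this group that were not called ran from −0.47 for RNF32, whose KO libraries all lay below its WT libraries, to 0.045 for RNF227. RNF10 and RNF123 are included because the study names them. For its qRT-PCR the study chose rnf10 among genes of Akirin2-interacting proteins that it describes as differentially regulated in KO. Those qRT-PCR values were not used here, and RNF10 was not called in these libraries (limma adjusted p = 0.82). RNF10 had a log2 KO/WT ratio of −0.013 with a 95% interval of −0.11 to 0.084, and RNF123, with 1623, 1325 and 1615 in KO and 1612, 1711 and 1817 in WT, had overlapping groups and a call, at −0.18, that was lost in 8 settings, among them those without KO2, WT2 or WT3.

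Per kilobase, the RNF genes with the highest levels in WT were RNF5, RNF181 and RNF187, with 3194, 2766 and 1896 normalized counts. In KO they were RNF181, RNF5 and RNF167, with 3023, 2807 and 1472. RNF5, a ligase of the endoplasmic reticulum, was lower, at −0.19, and shares 27.3% of its 31-base words with the pseudogene RNF5P1. Among the E2 genes UBE2M had the highest level in both groups, 4033 in WT and 3580 in KO.

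Replicates of most members were close. The median coefficient of variation was 4.21% in KO and 5.10% in WT over the E1 genes, 3.07% and 5.16% over the E2 genes, and 4.96% and 4.90% over the RNF genes. Of the 73 members called, 57 were called in the same direction in all 18 other settings, and 23 of the 30 that were not called stayed so in all of them.

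The proteins that these enzymes attach, and their partners, were read from lists of related genes. Of 16 ubiquitin and ubiquitin-like modifier genes, 4 were higher and 7 lower. UBB, a polyubiquitin gene, had 5164, 5310 and 4997 normalized counts in KO and 6048, 6102 and 5408 in WT, without overlap and with a log2 KO/WT ratio of −0.18. RPS27A, a fusion of ubiquitin and a ribosomal protein, was lower, at −0.38. GABARAP, an autophagy modifier, was lower, at −0.59.

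Of 6 genes of ISG15 conjugation that were tested, 4 were higher and none lower. ISG15 had 666, 715 and 693 normalized counts in KO and 505, 587 and 542 in WT, a log2 KO/WT ratio of 0.35, beside 0.37 for its E1 UBA7, 0.99 for its E2 UBE2L6 and 0.85 for its main ligase HERC5. HERC5 had 295, 326 and 313 in KO and 158, 167 and 195 in WT. In this list UBA7 and UBE2L6 are members themselves, HERC6 and TRIM25 were not called, with 0.078 and −0.044, and the count was the same in every other setting.

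The NEDD8 and SUMO systems changed unevenly. NEDD8 had 4840, 4913 and 5092 normalized counts in KO and 3682, 3549 and 3458 in WT, a log2 KO/WT ratio of 0.47, and NAE1, the partner of UBA3, was higher by 0.32, while the E2 genes UBE2M and UBE2F were lower. Of the 14 genes of the cullin-RING core, the main targets of NEDD8, 9 were higher and none lower, in every setting. ELOB, an adaptor, had 8543, 8428 and 8508 in KO and 4486, 4673 and 4228 in WT, a log2 KO/WT ratio of 0.93, and DDB1, the adaptor of CUL4A and CUL4B, was higher by 0.73. Beside the fall of UBA2, its partner SAE1 was lower, at −0.28, and SUMO2, at −0.19, and SUMO3 was not called, with 0.088. Of the 11 E1 partners and E2 genes with other names, 1 was higher and 5 lower, CDC34 and TSG101 most, both at −0.77.

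Subunits of the anaphase-promoting complex, which UBE2C and UBE2S serve, were 9 higher and 2 lower of 16. ANAPC7 had 3659, 3708 and 3740 normalized counts in KO and 2669, 2579 and 2503 in WT, a log2 KO/WT ratio of 0.52, and CDC16 was higher by 0.46. The activator CDC20 was higher by 0.12 and the activator FZR1 lower, at −0.38. The number called higher was 8 to 12 over the other settings, with 2 lower in each.

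Partners of the RNF ligases were 2 higher and 10 lower of 16, a list that holds the member RNF7, which was not called. While RNF31 was not called, RBCK1, which joins it in the linear chain complex, had 3880, 3585 and 3686 normalized counts in KO and 7365, 8073 and 7647 in WT, a log2 KO/WT ratio of −1.05 (SE 0.047, limma adjusted p = 4.2e-13), and SHARPIN, the third subunit, was lower, at −0.27. Beside RNF2 with a difference near 0, its paralog RING1 was lower, at −0.30. The polycomb subunit CBX2 had 231, 298 and 257 in KO and 764, 858 and 787 in WT, a log2 KO/WT ratio of −1.62, and CBX8 and PCGF2 were lower, at −0.84 and −1.81. PCGF5 rose, by 0.88. WAC, a partner of RNF20 and RNF40, was lower, at −0.48.

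The HECT ligases, which share UBE2L3 and the UBE2D enzymes with the RNF class, were 7 higher and 9 lower of 23. NEDD4 had 76.8, 84.4 and 101 normalized counts in KO and 307, 272 and 312 in WT, a log2 KO/WT ratio of −1.76, and NEDD4L was lower, at −1.09. Of 7 deubiquitinases of NF-kB signalling and ISG15 that were tested, 3 were lower and 1 higher. TNFAIP3, which removes K63-linked chains from signalling proteins, had 930, 945 and 926 in KO and 3035, 3024 and 3267 in WT, a log2 KO/WT ratio of −1.73 (SE 0.051, limma adjusted p = 8.7e-16), and CYLD was lower, at −1.43. These counts per list stand beside 30.3% of all genes in each direction. Of genes averaging 100 or more normalized counts, 37.1% were higher and 35.9% lower. The lists overlap the classes in the members named.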

How the data were processed

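Polyadenylated RNA of HL60 cells, KO for akirin2 or WT, was sequenced by a service provider in 3 replicates per group. The labels' processing notes list Trimmomatic 0.36, Subread 1.5.2, featureCounts and DESeq2 and name the build GRCh38, without saying which tool did what. Aligner, annotation and strand setting were not given in the sources used here. Signal values, as the authors deposited them, are reads per gene that were scaled by the size factor of the library. The authors' deposited table further holds log2 fold changes and p-values, raw and adjusted, of their own comparison, and these were not used. Values were whole multiples of what 1 read is worth for 100% of genes in each library (tolerance 0.01), which gave depths of 36096459 to 47607520 reads in KO and 41419318 to 52244122 in WT.

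Groups were compared on log2(normalized count + 1) with limma 3.58.1 in R 4.3.3 (eBayes with a variance trend, two-sided). Adjustment was by Benjamini-Hochberg over all 17425 genes whose mean reached 10. The pseudocount shrinks the ratios of low genes. The steps were tested on simulated data. By identifier, 17420 genes (99.55%) were found in GENCODE 29, which gave coordinates and joined exon lengths, 59 genes have no name and 15 names belong to several genes. The rule left out 9 pseudogenes. Sharing was the percent of a member's transcript words of 31 bases found in any other gene. Promoter windows were those of RefSeq, and 20 members had none in the table used.

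The members, the role groups and the lists were chosen with earlier results of these data known. Named genes were E1 members, RNF10, RNF123, the paralogs of UBE2A, UBE2D and UBE2V, the 2 largest called changes of each list and, per class of E2 and RNF, the 6 highest counts and the 8 largest rises and 8 largest falls (called, libraries of KO and WT apart, higher group averaging at least 100). Other members and list partners were named after their values were seen. Some genes enter the counts but are not reported by name here, in text or figures. Alternatives were pseudocounts of 0.5 and 5, minimum means of 0 and 50, TMM scaling or equal library totals, edgeR 4.0.16 or DESeq2 1.42.0 on recovered reads, no variance trend, a replicate block, a length trend taken out (spline, 4 degrees of freedom), and libraries left out. Python 3.11.15 with pandas 2.3.3 and numpy 2.4.6 handled tables, matplotlib 3.10.9 the figures.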

Additional observations from a re-analysis of the deposited data

How the results depend on the processing

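No member called in KO against WT had the opposite direction in any of the 18 settings tried. The count of E1 genes called higher was 5 with equal library totals and 5 with the length trend removed, beside 3. Leaving out each library in turn gave 4 to 5 E1, 24 to 26 E2 and 33 to 42 RNF genes called, and 9657 to 10244 over the whole table. RNF genes called higher then ranged from 9 to 12 and lower from 24 to 30. Equal library totals moved the median of all genes to 0.050 on the log2 scale and the whole table to 5915 genes called higher. The replicate numbers did not pair the libraries, with correlations of −0.073, 0.052 and −0.075 between same-numbered KO and WT libraries, and the fit with the replicate block changed 3 calls among the members, those of RNF111, RNF149 and RNF39, which were lost. The calls of RNF111, RNF149, RNF39 and RNF165 were each lost in 9 or more settings, and the cause was not tested. For members at low counts, such as RNF43, RNF39 and RNF144B, depth limits the precision.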

Other observations

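Genes named after the members but outside the rule are given as values. RNF144A-AS1, the antisense gene of RNF144A, had 123, 103 and 90.1 normalized counts in KO and 44.1, 33.7 and 20.1 in WT, a log2 KO/WT ratio of 1.72 (limma adjusted p = 7.0e-06), so that it was higher together with RNF144A. UBE2R2-AS1 was higher by 0.74 (limma adjusted p = 0.0040), with 73.1, 79.3 and 62.4 in KO and 37.6, 43.8 and 46.0 in WT, while UBE2R2 was lower. RNF216P1, a transcribed pseudogene, had 948, 910 and 895 in KO and 673, 641 and 599 in WT, a log2 KO/WT ratio of 0.53, whereas its parent RNF216 was lower, at −0.25. Whether counting used the strand is not given in the sources used here, so that reads of a gene and its antisense partner may not be separated.

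Among the processed pseudogenes, UBE2FP1 had 40.2, 30.1 and 22.8 in KO and 65.7, 84.3 and 74.5 in WT, lower, at −1.27, in the direction of its parent UBE2F. UBE2CP2 had 4.57, 7.03 and 4.80 in KO and 19.7, 12.4 and 24.3 in WT, lower, at −1.58, in the opposite direction to UBE2C. The read-through gene RNF103-CHMP3 was not called (limma adjusted p = 0.065). RNFT1 and RNFT2, whose names lie outside the rule, were not called, with log2 KO/WT ratios of 0.12 and 0.66.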
